A study of Mus musculus with 4 samples.

Results

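The microRNAs (miRNAs) miR-10a, miR-10b, miR-196a and miR-196b are encoded inside the Hox gene clusters. Their levels were measured by quantitative PCR in mouse lung. The members were the 5 assays whose deposited miRBase identifier is mmu-miR-10a, mmu-miR-10b, rno-miR-10b (a second, rat-named miR-10b assay), mmu-miR-196a or mmu-miR-196b, of 750 miRNA assays in all. The 4 groups were adults in hyperoxia, adults in room air, newborns in hyperoxia and newborns in room air, each with 1 library of right lung RNA. Adults were 2 months old. Newborns entered the experiment under 12 h of age and were labelled day 3. Both ages spent 72 h in their atmosphere, which held 95% oxygen in the hyperoxia groups, and nursing dams alternated daily between the 2 atmospheres. The labels give no strain and no number of animals per library, and no comparison of single libraries could be checked against replicates. The comparisons ask how lung miRNAs differ with age and after high oxygen.

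Hox genes encode transcription factors that give cells their position along the head to tail axis. The order of the genes in a cluster follows the order of the body regions in which they act, and miRNAs within a cluster tend to be expressed with their neighbours. miR-10 genes sit among genes of the anterior part of a cluster and miR-196 genes among genes of the posterior part. Both families repress Hox mRNAs, and miR-196 directs cleavage of the Hoxb8 mRNA in mouse embryos. Lung forms in the anterior trunk, and its mesenchyme expresses mainly anterior and central Hox genes such as Hoxa5.

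The mature sequences are shown because they define 2 families and because close relatives may be read by one another's assays. RefSeq, build GRCm38.p6, held the mature sequence of 4 of the 5 members. Capitals mark the seed, bases 2 to 8, the main determinant of target choice.
miR-10a: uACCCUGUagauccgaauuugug
miR-10b: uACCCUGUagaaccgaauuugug
miR-196a: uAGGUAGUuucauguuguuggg
miR-196b: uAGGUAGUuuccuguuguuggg
Counted from the 5′ end, miR-10a and miR-10b differed only by U12A, and miR-196a and miR-196b only by A12C. Each pair shared its whole seed and differed at position 12, while miR-10a and miR-196a shared no run longer than 4 bases.

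These RNAs come from 5 loci in 4 Hox clusters. The Mir10a hairpin (GRCm38.p6, chr11:96317165-96317274, plus strand) lies between Hoxb5 and Hoxb4, within the annotated span of Hoxb3. Mir10b (chr2:74726070-74726137, plus strand) lies within the annotated spans of Hoxd3 and Hoxd4. miR-196a has 2 genes with the same mature sequence, Mir196a-1 (chr11:96265164-96265265, plus strand) between Hoxb13 and Hoxb9, and Mir196a-2 (chr15:102973350-102973434, plus strand) between Hoxc10 and Hoxc9. Mir196b (chr6:52230081-52230165, minus strand) lies between Hoxa9 and Hoxa10. Mir10a and Mir196a-1 are thus 51.9 kb apart in the same cluster, with no other member between them. The gene table used here gives gene spans and no exons, so exonic or intronic position was not determined.

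A level here is log2 relative to the small nucleolar RNA snoRNA202 of the same card. It is the threshold cycle (Ct, the cycle at which a well crosses the detection threshold) of snoRNA202 minus that of the assay, so a higher value means more RNA. Assays differ in efficiency, and levels were therefore compared between libraries and not between miRNAs. Each library covers 2 cards. miR-10a, miR-10b and miR-196b are on the first card, and miR-196a and the rat-named miR-10b assay on the second. All 5 members were detected (Ct of 35 or below) in all 4 libraries, as were 426 of 750 miRNA assays. The 4 control RNAs present on both cards gave a technical SD for differences between libraries: 0.65 log2 for adult against newborn in room air, 0.95 for adult against newborn in hyperoxia, 0.26 for hyperoxia against room air in newborns and 0.33 in adults. As markers of the labelled tissue, the 5 lung epithelium miRNAs matched by name and the endothelial miR-126-5p were detected in every library. So were the assays with identifiers mmu-miR-375-3p and mmu-miR-126, which are spelled otherwise than in the marker lists and were left out of them.

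The posterior miR-196a was far lower in adult than in newborn lung, and the anterior miR-10b was higher. miR-196a stood at -15.84 in adult hyperoxia, -15.98 in adult room air, -9.73 in newborn hyperoxia and -8.14 in newborn room air. The 2 adult libraries lay close together, and both newborn libraries lay far above them. The difference was -7.84 log2 in room air and -6.10 in hyperoxia, each many times the technical SD. In Ct, which involves no reference RNA, miR-196a crossed the threshold at 29.6 in both adult libraries, against 24.3 in newborn hyperoxia and 23.5 in newborn room air. Over both atmospheres miR-196a fell by 6.97 ± 0.57 log2 in adults (SE; limma additive model of age and oxygen, Benjamini-Hochberg adjusted p = 0.0086). Of the 426 assays fitted, 9 (2.11%, miR-196a included) had an age difference at or below that of miR-196a. Counted across the whole table, 30.0% of assays fell and 5.63% rose with age in that model, with a median of -0.84 log2, so a fall as such was common and the size of this one was not.

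**Figure D1:**
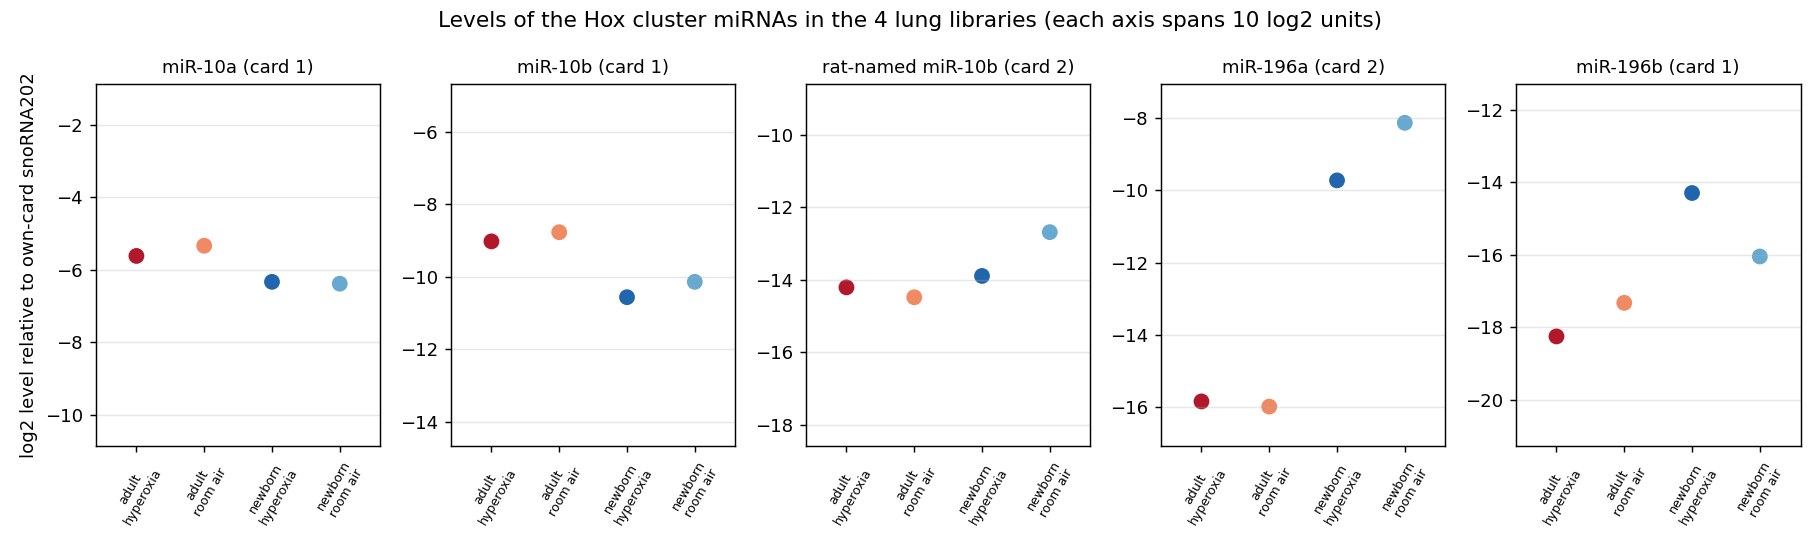
Level of each member (log2 relative to own-card snoRNA202, y axis) in adult hyperoxia, adult room air, newborn hyperoxia and newborn room air (x axis), 1 point per library and no error bars because each group has 1 library. miR-196a lies near -16 in adults, at -15.84 and -15.98, and at -9.73 and -8.14 in newborns; miR-10a and miR-10b are higher in adults.

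miR-196b, which has the same seed as miR-196a, was also lower in adults, by less. Its level was -18.26 in adult hyperoxia, -17.33 in adult room air, -14.30 in newborn hyperoxia and -16.05 in newborn room air. Both adult libraries lay below both newborn libraries, which was so for 55.6% of the assays fitted. The difference was -3.96 log2 in hyperoxia and -1.28 in room air. The fitted age difference of -2.62 ± 0.81 log2 (SE) did not pass the threshold (limma, adjusted p = 0.0889). It came from late wells, with a Ct of 31.1 and 30.8 in adults and of 27.8 and 30.1 in newborns. With U6 as the reference the room air difference of miR-196b turned to 1.37.

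Among the anterior miRNAs, miR-10b had levels of -9.02 in adult hyperoxia, -8.77 in adult room air, -10.57 in newborn hyperoxia and -10.14 in newborn room air. Both adult libraries lay above both newborn libraries, which was so for 22.5% of the assays fitted. The adult library was higher by 1.37 log2 in room air and by 1.54 in hyperoxia. In the model miR-10b rose with age by 1.46 ± 0.30 log2 (SE; limma, adjusted p = 0.0452). Without a detection limit its adjusted p was 0.112 and that of miR-196a 0.0503 (limma), with wells that never crossed the threshold included among 750 assays.

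miR-10a, from the Hoxb cluster, ordered the libraries by age as miR-10b did. It stood at -5.61 in adult hyperoxia, -5.33 in adult room air, -6.33 in newborn hyperoxia and -6.38 in newborn room air. Within each age the 2 libraries differed by less than or about the technical SD. The adult library was 1.05 log2 higher in room air and 0.72 higher in hyperoxia. At 0.88 ± 0.31 log2 (SE) the fitted age difference did not pass the threshold (limma, adjusted p = 0.113). It passed under 4 other normalizations, with values of 1.47 to 3.69 (limma, adjusted p of 0.008 to 0.0328). miR-10b and miR-10a share a card, so their difference needs no reference: miR-10b minus miR-10a was -3.41 and -3.44 in adults, against -4.24 and -3.76 in newborns.

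**Figure D2:**
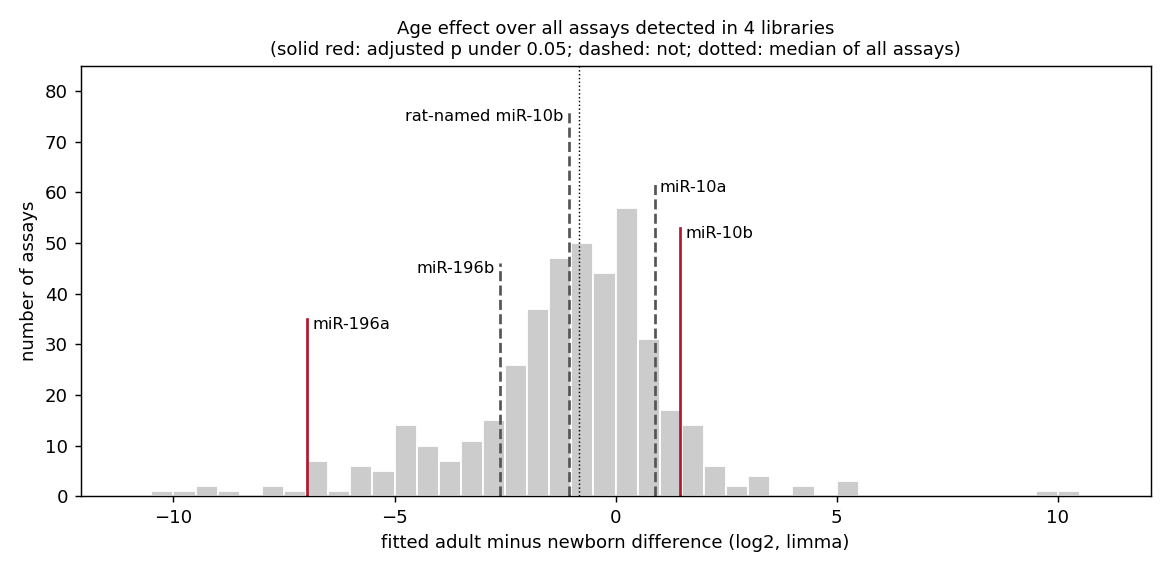
Number of assays (y axis) by fitted adult minus newborn difference (x axis, log2, limma) for the 426 assays detected in all 4 libraries, with the 5 members as lines. miR-196a at -6.97 and miR-10b at 1.46 (solid red) passed the threshold; miR-196b, the rat-named miR-10b and miR-10a (dashed) did not; the median of all assays is -0.84 (dotted).

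Set against each other, miR-196a was lower in adults relative to each miR-10 assay, and miR-196b relative to miR-10a and the mouse-named miR-10b. miR-196a minus miR-10b was -6.81 in adult hyperoxia and -7.21 in adult room air, against 0.83 in newborn hyperoxia and 2.00 in newborn room air. The mean was -7.01 over the 2 adult libraries and 1.42 over the 2 newborn libraries, a difference of -8.43 log2 (exact permutation test over libraries, two-sided, p = 0.333, the smallest p that 2 against 2 allows; 8 such contrasts were computed). miR-196a and miR-10b sit on different cards. In same-card pairs, where the reference cancels, the adult minus newborn difference was -4.08 for miR-196b minus miR-10b, -3.50 for miR-196b minus miR-10a and -5.91 for miR-196a minus rat-named miR-10b. In all of these pairs both adult libraries lay below both newborn libraries. miR-196b and rat-named miR-10b, on different cards, were not contrasted. In room air the adult minus newborn difference was -1.28 for miR-196b and -1.80 for rat-named miR-10b. That pair thus did not go the same way in room air.

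Differences of 2-fold (1 log2 unit) between single libraries were frequent with age. In room air 3 of 5 members lay 2-fold or more below the newborn in the adult, against 43.0% of 435 assays, and 2 lay 2-fold or more above it, against 16.6%. In hyperoxia 2 members were lower, against 49.3% of 450 assays, and 1 was higher, against 10.9%. The median of the members was -1.28 log2 in room air and -0.32 in hyperoxia, beside -0.57 and -0.98 over all assays compared. These shares differed with the reference RNA. With U6, 248 assays were higher and 81 lower in room air, in place of 72 and 187, and 223 were higher and 114 lower in hyperoxia, in place of 49 and 222. In the model 24 assays rose and 128 fell with age, against 196 and 71 with U6. The adult minus newborn difference of U6 relative to snoRNA202 in room air was -2.65 log2 on card 1 and -1.12 on card 2. The sign of the age difference of miR-10a, miR-10b and miR-196a was the same under all 6 normalizations, in both atmospheres. It ranged from -8.06 to -6.39 for miR-196a in room air and from 1.37 to 4.02 for miR-10b.

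**Figure D3:**
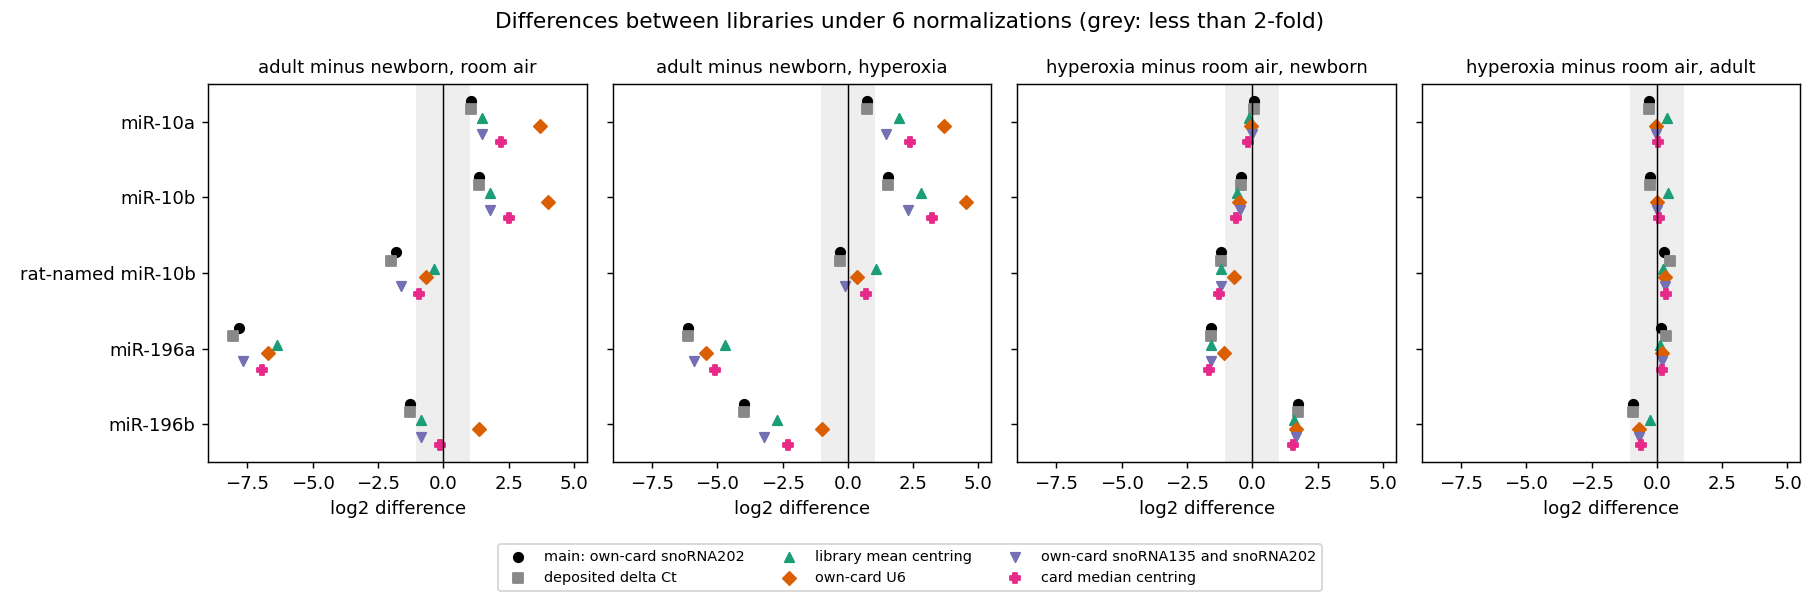
Log2 difference between 2 libraries (x axis) for each member (y axis) in the 4 comparisons, with 1 symbol per normalization; the grey band holds differences under 2-fold. miR-196a stays at or below -4.70 in both age comparisons, and miR-196b in room air runs from -1.28 to 1.37.

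In newborn lung the 2 miR-196 members differed in opposite directions between hyperoxia and room air, and in adult lung no member differed by 2-fold. In newborns miR-196a was 1.59 log2 lower in hyperoxia (-9.73) than in room air (-8.14). miR-196b was 1.75 higher in hyperoxia, at -14.30, against -16.05 in room air. Its plate row, E of card 1, had the lowest correlation with the other libraries of any row that holds a member (r = 0.769, in newborn hyperoxia). In that row and library miR-191 did not cross, and r was 0.986 without that assay, a check chosen after seeing the data. The row of miR-196a, P of card 2, had r = 0.894 in adult room air, and 0.926 without its most deviant assay. In newborn room air miR-196a was itself the most deviant assay of that row (r = 0.961, and 0.972 without it). The rat-named miR-10b assay was at -13.89 in newborn hyperoxia and -12.68 in newborn room air, a difference of -1.21. The newborn oxygen difference was -0.42 log2 for miR-10b and 0.05 for miR-10a. Thus 2 of 5 members were at least 2-fold lower, against 8.53% of 469 assays, and 1 was higher, against 13.6%. Over all 469 assays 64 were higher and 40 lower, a split that was 78 and 28 with U6. The signs for miR-196a and miR-196b held under all 6 normalizations, at -1.67 to -1.09 and 1.55 to 1.75. The oxygen difference in newborns and the age difference in room air share the newborn room air library.

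The adult oxygen difference was -0.93 for miR-196b, -0.28 for miR-10a, -0.25 for miR-10b, 0.14 for miR-196a and 0.27 log2 for rat-named miR-10b. None reached 2-fold, against 3.79% of 448 assays that were higher and 8.26% that were lower. With mean centring the split over all assays was 30 and 28 in place of 17 and 37. In the model of both ages 0 of 5 members and 0.0% of 426 assays passed the threshold for oxygen (limma, adjusted p = 0.988 to 0.993 for the members), while 13 assays (3.05%) had an unadjusted p under 0.05, none of them a member. That model assumes the same oxygen effect at both ages.

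Relative to snoRNA202 the 2 miR-10b assays gave age differences of opposite sign, which in hyperoxia depended on the normalization. The row with the rat identifier carries the assay name mmu-miR-10b in the deposited table, and the row with the mouse identifier the name hsa-miR-10b, so the 2 names of each row do not match in species. The rat-named assay stood at -14.21 in adult hyperoxia, -14.48 in adult room air, -13.89 in newborn hyperoxia and -12.68 in newborn room air. Both adult libraries lay below both newborn libraries, the reverse of the mouse-named assay. The difference was -1.80 log2 in room air and -0.32 in hyperoxia, and the fitted -1.06 ± 0.51 (SE) did not pass the threshold (limma, adjusted p = 0.196). In Ct the rat-named assay spanned less than 1 cycle, at 28.0 in adult hyperoxia, 28.1 in adult room air, 28.5 in newborn hyperoxia and 28.0 in newborn room air. The second card's snoRNA202 crossed at 13.8 in adult hyperoxia and 13.7 in adult room air, against 14.6 in newborn hyperoxia and 15.3 in newborn room air. The mouse-named assay crossed at 21.9 in adult hyperoxia and 22.2 in adult room air, against 24.1 and 24.2 in the newborn libraries. With mean centring the fitted age difference of the rat-named assay was 0.37. Its age difference in hyperoxia had the sign of the mouse-named assay under 3 of 5 other normalizations, at 1.09 with mean centring, 0.34 with U6 and 0.71 with card medians.

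**Figure D4:**
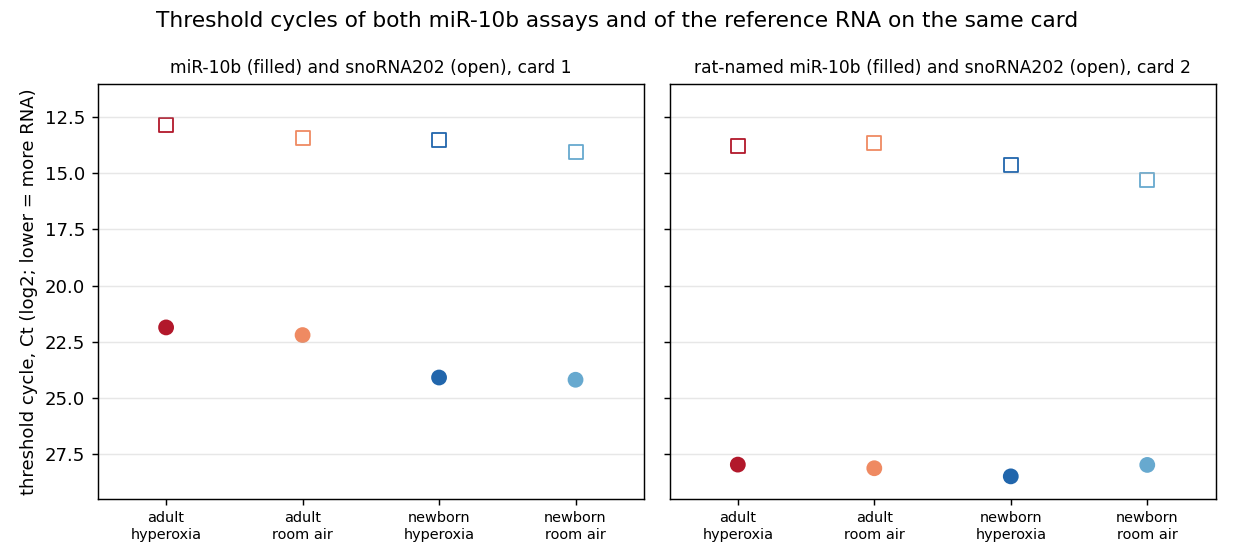
Threshold cycle (y axis, log2 scale, drawn so that more RNA is higher) of the mouse-named miR-10b assay on card 1 and the rat-named assay on card 2 (filled circles), with snoRNA202 of the same card (open squares), in the 4 libraries (x axis). The rat-named assay stays between 28.0 and 28.5, while snoRNA202 of its card lies between 13.7 and 15.3.

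Mouse-named minus rat-named miR-10b was 5.18 in adult hyperoxia and 5.71 in adult room air, against 3.33 in newborn hyperoxia and 2.54 in newborn room air. The mean gap was 2.51 log2 larger in adults (exact permutation test, two-sided, p = 0.333, the smallest possible here). Other miRNAs read by a mouse-named and a rat-named assay of the same name give a scale for this gap. Of 61 such pairs 26 were detected in all 4 libraries on both assays, 16 of them on different cards. The gap between their age differences in room air ran from -1.45 to 3.36 log2 with a median of 0.02, and 2 of the 26, miR-10b at 3.17 and miR-207, were at or above miR-10b's value. In hyperoxia the miR-10b gap was 1.86, 3 pairs were at or above it, and the median was -0.22. The 2 assays had opposite signs in 7 of 26 pairs in room air and 5 of 26 in hyperoxia.

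**Figure D5:**
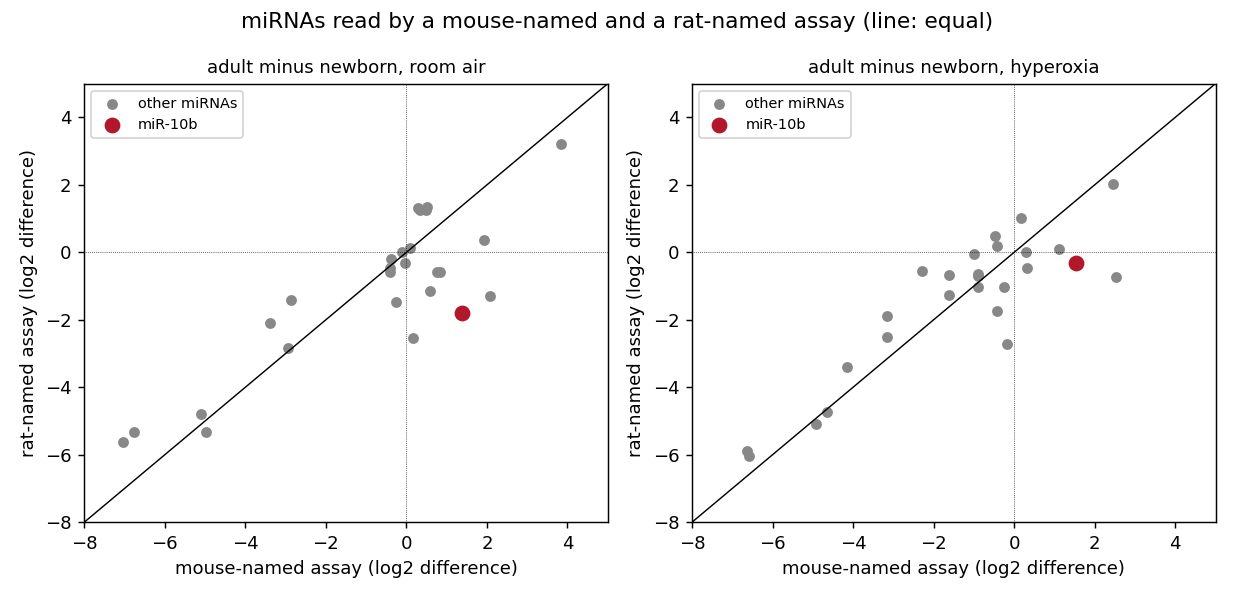
Adult minus newborn difference (log2) on the rat-named assay (y axis) against the mouse-named assay (x axis) for the 26 miRNAs detected on both, in room air and in hyperoxia; the line marks equal values. miR-10b (red) lies below the line at 1.37 against -1.80 in room air and 1.54 against -0.32 in hyperoxia.

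Of 16 other Hox-embedded miRNAs sought by name, 6 had an assay. The rat-named miR-196c was detected in all 4 libraries, at -16.12 in adult hyperoxia, -15.58 in adult room air, -13.16 in newborn hyperoxia and -13.92 in newborn room air. It sits on the first card beside miR-196b and fell by 2.32 ± 0.47 log2 in adults (SE; limma, adjusted p = 0.0450). This fall depends on the reference. Its adult minus newborn difference was -1.665 log2 in room air and -2.967 in hyperoxia. U6 on the same card differed by more, at -2.647 and -2.977, so miR-196c did not fall relative to U6. In newborn hyperoxia it was 0.76 above newborn room air, on the side of miR-196b and opposite to miR-196a. miR-196c and miR-196b occupy neighbouring wells of row E. The passenger strand miR-10b* crossed late in newborns alone, at a Ct of 36.3 in hyperoxia and 35.3 in room air, against no crossing in either adult library. miR-10a* and miR-196a* each crossed after Ct 37 in 1 library, and miR-615-3p and miR-615-5p, from the Hoxc cluster, in none.

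miR-99a, miR-99b and miR-100 are relatives of miR-10 with another seed, shown for comparison with the miR-10 sequences.
miR-99a: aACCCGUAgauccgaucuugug
miR-99b: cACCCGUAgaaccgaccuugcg
miR-100: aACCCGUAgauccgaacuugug
The longest run of bases shared with miR-10a was 10 for miR-99a, 11 for miR-100 and 5 for miR-99b. With miR-10b it was 5 for miR-99a, 5 for miR-100 and 10 for miR-99b. miR-99a rose with age by 1.58 ± 0.30 log2 and miR-100 by 1.74 ± 0.38 (SE; limma, adjusted p = 0.0397 and 0.0480), sizes like that of miR-10b. miR-99b, at -0.25 ± 0.30 (limma, adjusted p = 0.558), did not pass the threshold.

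By the root mean square difference of centred levels over the 4 libraries, the assays most like miR-196a were miR-541 (0.44 log2), miR-351 (0.50) and miR-487b (0.53). For miR-10b they were miR-7b (0.13), the assay named hsa-miR-125b-5p (0.17) and miR-99a (0.17). miR-10a was closest to miR-467f (0.073), miR-27b (0.080) and miR-151-5p (0.085). miR-196b was closest to the passenger strands miR-503* (0.27), miR-17* (0.29) and miR-218-1* (0.29), and rat-named miR-10b to miR-1961 (0.20), miR-183* (0.25) and miR-704 (0.27).

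Some markers of other cells also differed with age. In whole lung, fewer cells of a type and less RNA per cell cannot be told apart. All 5 fibroblast and mesenchyme miRNAs were detected in every library, with a summed level of -3.19 and -2.84 log2 in adults, against -1.64 and -1.80 in newborns. Of these miR-214 (-3.00) and miR-199a-5p (-2.28) fell with age (limma, adjusted p = 0.0127 and 0.0214). These falls depend on the reference. On card 1, which holds both, U6 differed by -2.65 log2 in room air and -2.98 in hyperoxia. The summed level differed by less than U6 in both atmospheres. So did miR-199a-5p, at -2.42 and -2.13, while miR-214 differed by slightly more, at -2.86 and -3.145. Of the other 7 marker lists, 1 member passed for age, the striated muscle miR-206, which fell by 2.91 (limma, adjusted p = 0.0144). For scale, 30.0% of all assays fitted fell with age and 5.63% rose. The median age difference of all assays was -0.84 log2, and 1.19 with U6 as the reference. The part of these cells in the miR-196 and miR-10 differences was not tested.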

How the data were processed

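The authors deposited, per the file headers, a Ct and a delta Ct (Ct minus snoRNA202 Ct) for 768 wells on 2 cards, both in log2 units and lower where there is more RNA. Per the labels' protocols, RNA was reverse transcribed with Megaplex primers, preamplified and read with TaqMan assays. A Ct of 40 stands for no crossing. In adult room air the deposited delta Ct of the second card uses the first card's snoRNA202 (a shift of -0.225), so levels were recomputed from Ct with each card's own snoRNA202. There are no reads, and Ct stands in place of depth: the median detected Ct was 24.0 to 24.2, and 468 to 507 assays were detected per library. Row L of the first card, out of step in adult room air (r = 0.302 with the mean of the other libraries over its wells, and 0.356 without its most deviant well), holds no member; its wells include miR-615-3p.

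Libraries were grouped by title. Differences of 1 log2 unit or more were counted where Ct was 35 or below in both libraries. limma 3.58.1 (R 4.3.3) fitted age and oxygen as additive terms to the 426 assays detected in every library. Adjusted p-values (Benjamini-Hochberg) under 0.05 were called. The fit has 1 residual and 2.16 prior degrees of freedom and leaves out errors of the reference RNA. It was run on simulated data with independent noise alone, which cannot show how it performs on these libraries. With 1 library a group, the residual of an assay is how far its age differences in the 2 atmospheres disagree. SEs and p-values reflect this and the prior over all assays, and not the spread between replicates. Such disagreement may be technical or an oxygen effect that differs with age, and these cannot be told apart. The technical SD is the root mean square gap between cards of 4 control RNAs divided by the square root of 2. Exact tests used scipy 1.17.1. Other reference RNAs, centring, detection limits, fold limits and eBayes settings were tried. Named were the 5 members, the other Hox-embedded miRNAs, miR-99 and miR-100, 8 marker lists, the 3 assays closest to each member, and miRNAs read by both a mouse-named and a rat-named assay. Members and lists were chosen with earlier results of these data known.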

Additional observations from a re-analysis of the deposited data

Results flagged for a closer look

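For 4 of 5 members the oxygen difference had opposite signs at the 2 ages, each from 1 library against 1. The medians over all assays compared were also of opposite sign, at 0.13 log2 in newborns and -0.24 in adults. The share of all assays with opposite signs was not counted, and the difference between the ages was not tested. For miR-196b hyperoxia minus room air was 1.75 log2 in newborns and -0.93 in adults. For miR-196a it was -1.59 in newborns and 0.14 in adults, and for rat-named miR-10b -1.21 and 0.27. For miR-10a it was 0.051 in newborns and -0.28 in adults, both at or under the technical SD of 0.26 and 0.33. The adult values of miR-196a and rat-named miR-10b were also under the technical SD. The sign of the miR-10a difference in newborns followed the reference, reaching -0.15 with each card centred.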

How the results depend on the processing

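No paired analysis was possible because each group has 1 library; leaving out a library leaves the model no residual degree of freedom. The 347 values under other settings include counts of members, which cannot change sign. They also include differences that the detection limits and eBayes settings left as they were. Of the 347 values, 16 changed sign, all under another normalization. Of these 4 came from a 2-fold or fitted difference: miR-196b in room air between ages (1.37) and in the age fit (0.19), both with U6, and with mean centring rat-named miR-10b in the age fit (0.37) and miR-10a in the oxygen fit (0.13). The other 12 came from pair differences under 2-fold: rat-named miR-10b for age in hyperoxia (1.09 with mean centring, 0.34 with U6, 0.71 with card medians), miR-10a for oxygen in newborns (-0.15 to -0.01), and miR-10a (0.04 to 0.39) and miR-10b (0.0005 to 0.41) for oxygen in adults. The cause was not tested. Members at least 2-fold lower in adult room air numbered 1 with mean centring, U6 or card medians and 2 with both snoRNAs, in place of 3. With U6, 3 were higher there in place of 2. In adult hyperoxia 3 were higher with mean centring and 2 with U6, both snoRNAs or card medians, in place of 1, and 1 was lower with U6 in place of 2. In newborn hyperoxia 1 was lower with U6 in place of 2. With a 4-fold limit 0 were higher in adult room air, adult hyperoxia or newborn hyperoxia, 1 was lower in adult room air and 0 in newborn hyperoxia, by construction. Members that rose with age numbered 2 in place of 1 with mean centring, U6, both snoRNAs, card medians or an eBayes trend, miR-10a being the second. Without a detection limit 0 rose and 0 fell (limma; 245 of 750 assays had an unadjusted p under 0.05). The adult minus newborn difference of miR-196a minus miR-10b kept its sign in every setting, from -10.35 to -7.84 over 6 normalizations, and in same-card pairs chosen after seeing the data. That of mouse minus rat-named miR-10b ranged from 1.92 to 4.43. Over all assays fitted for age, 24 rose and 128 fell, against 99 and 77 with mean centring, 196 and 71 with U6, 50 and 112 with both snoRNAs, 136 and 84 with card medians, 38 and 161 with the trend, and 6 and 72 without a limit. Counts of 2-fold differences over all assays ranged over the normalizations from 69 to 248 higher and 81 to 192 lower for age in room air, 49 to 223 and 114 to 222 in hyperoxia, 50 to 78 and 28 to 47 for oxygen in newborns, and 17 to 30 and 28 to 37 in adults. No member has repeat wells, and the precision of a late assay such as miR-196b is unknown.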
